A study of Mus musculus with 6 samples.

Results

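The miR-99/100 and miR-125 clusters were followed through 7 TaqMan assays, chosen by their exact names in the Ct table: mmu-miR-99a, mmu-miR-99b, mmu-miR-100, mmu-miR-125a-5p, mmu-miR-125a-3p, mmu-miR-125b-5p and mmu-miR-125b-3p. These are 7 of 596 mouse miRNA assays, and all 7 names were found in the table. The rule used names and no measured value, but earlier results of these data were known when it was made.

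The aortas came from female Apoe-/- mice carrying a CreERT2 transgene under the VE-Cadherin (Cdh5) promoter, which is active in endothelial cells. EC-Dicerflox mice (n = 3) were Dicer1flox/flox and EC-DicerWT littermates (n = 3) were Dicer1WT/WT. Both groups received tamoxifen (2 mg per 20 g body weight) on 5 days and, at an age of 6 to 8 weeks, were put on a high-fat diet for 12 weeks (casein 19.5%, cholesterol 0.15%, crude fat 21%). The mice are labelled as biological replicates, and each sample is the total RNA of a whole aorta. A fall in the number of cells of a type and less RNA per cell therefore cannot be told apart.

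Dicer cuts hairpin precursors into mature miRNAs. Each hairpin yields a 5p and a 3p strand, of which usually a single strand is kept in the silencing complex and the other is degraded. In the mouse, miR-100, let-7a and miR-125b lie together at one locus, miR-99a, let-7c and miR-125b at another, and miR-99b, let-7e and miR-125a at the third. miR-99 and miR-100 are known for targeting mTOR pathway transcripts, and miR-125 for its part in blood cell development and in differentiation. In vessels, the miR-99b, let-7e and miR-125a cluster has been studied in endothelial cells and miR-125b in smooth muscle.

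In the RefSeq annotation of GRCm38.p6, the 3 miRNA genes of the first cluster (Mir100, Mirlet7a-2, Mir125b-1) span 50578 bases of chromosome 9 and overlap the host gene Mir100hg. The second (Mir99a, Mirlet7c-1, Mir125b-2) spans 47408 bases of chromosome 16, where no other listed gene overlaps them. The third (Mir99b, Mirlet7e, Mir125a) is packed into 692 bases of chromosome 17 and overlaps Spaca6. Because miR-125b-5p is made from both chromosome 9 and chromosome 16, its assay cannot assign the signal to a cluster.

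The mature sequences show which assays share a target code and how little separates them. They are RefSeq sequences, written 5′ to 3′ with the seed (bases 2 to 8) in capitals, all from the plus strand of GRCm38.p6.
mmu-miR-99a-5p (chr16:77598940-77598961): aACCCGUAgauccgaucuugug
mmu-miR-100-5p (chr9:41531437-41531458): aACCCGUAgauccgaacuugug
mmu-miR-99b-5p (chr17:17830194-17830215): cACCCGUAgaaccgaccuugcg
mmu-miR-125a-5p (chr17:17830817-17830840): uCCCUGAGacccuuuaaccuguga
mmu-miR-125b-5p (chr9:41581940-41581961 and chr16:77646279-77646300): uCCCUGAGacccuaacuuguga
mmu-miR-10a-5p (chr11:96317186-96317208): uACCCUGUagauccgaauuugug

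miR-99a, miR-99b and miR-100 share 1 seed, which no other of the 1679 mature mouse miRNAs in the RefSeq table carries. miR-99a and miR-100 have 21 of 22 bases in common and differ by U16A (miR-99a base, position from the 5′ end, miR-100 base). miR-99a and miR-99b have 18 of 22 in common and differ by A1C, U11A, U16C and U21C, all outside the seed. miR-125a-5p and miR-125b-5p share their first 13 bases, and their seed occurs in 5 of the 1679 entries, the others being miR-351-5p, miR-6367 and miR-6394. miR-10a-5p is shown because its sequence is related to the miR-99 group and its values are taken up below. Cross-detection between such similar miRNAs was not measured. Of the 7 assay names, 3 matched an entry by the same name and 3 after adding 5p. For miR-125b-3p the table has an entry for each of the 2 loci, and which of them the assay detects was not settled.

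The precursor of miR-125a shows where the 2 strands that were both assayed lie. In the Mir125a hairpin (chr17:17830812-17830879, plus strand, GRCm38.p6, 68 bases) the capitals mark miR-125a-5p at positions 6 to 29 and miR-125a-3p at positions 44 to 65.
Mir125a: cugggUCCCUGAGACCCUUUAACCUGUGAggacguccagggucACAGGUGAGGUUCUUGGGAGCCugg

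The measure is the threshold cycle (Ct), the PCR cycle at which the signal of an assay crosses a set level, so that a lower Ct means more RNA and a Ct of 40 means not detected. The miRNAs smooth muscle is known for led the profile, with miR-145 ranking 1 and miR-143 ranking 5 of the 596 assays by mean Ct, and all 12 marker assays of vascular, blood, muscle and liver cells were detected in all 6 samples. Among the markers of tissues other than aorta, liver miR-122 ranged from a Ct of 22.3 to 26.7. Of the striated muscle markers, miR-133a ranged from 18.2 to 19.0 (rank 25) and miR-1 from 21.7 to 22.5 (rank 85). Heart muscle miR-208 ranged from 30.1 to 33.2 (rank 356). Dicer1 itself is not measured by these cards. Of the endothelial markers, mmu-miR-126-3p differed by −0.13 ± 0.32 log2 and mmu-miR-126-5p by 0.25 ± 0.35 log2 between EC-Dicerflox and EC-DicerWT (SE, limma, adjusted P = 0.99 each). The mean Ct of the control RNAs, used as the reference, came to 19.9 ± 0.46 in the EC-Dicerflox group and 19.7 ± 0.39 in the EC-DicerWT group (SD, n = 3 each). Of 394 assays detected in all samples, EC-DicerWT 3 lay more than 2 cycles outside the other 5 samples in 16, the other samples in 0 to 8.

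The 7 assays fell into 3 ranges of Ct: 3 abundant 5p strands, 2 much weaker 3p strands, and 2 assays near the limit of detection. mmu-miR-125b-5p was the most abundant, ranking 10 of the 596 assays. Its Ct was 16.6, 17.0 and 17.1 in EC-Dicerflox 1, 2 and 3 and 16.6, 16.5 and 17.0 in EC-DicerWT 1, 2 and 3. The groups overlapped, with EC-DicerWT 2 earliest and EC-Dicerflox 3 latest.

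mmu-miR-99b came next, at rank 23. Its Ct was 18.8, 18.9 and 19.1 in EC-Dicerflox 1, 2 and 3 and 18.0, 18.1 and 18.5 in EC-DicerWT 1, 2 and 3. Every EC-Dicerflox sample crossed the threshold later than every EC-DicerWT sample.

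mmu-miR-125a-5p ranked 63. Its Ct was 20.5, 21.4 and 21.0 in EC-Dicerflox and 20.7, 21.0 and 20.7 in EC-DicerWT, in the order of the replicate numbers. EC-Dicerflox 1 and 2 were the earliest and the latest of all 6 samples.

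The 3p strands ranked 238 and 267. The Ct of mmu-miR-125a-3p was 27.3, 27.9 and 28.9 in EC-Dicerflox and 27.8, 27.6 and 28.5 in EC-DicerWT. That of mmu-miR-125b-3p was 28.0, 28.8 and 29.0 in EC-Dicerflox and 28.6, 28.8 and 28.6 in EC-DicerWT. In both assays the groups overlapped, and the earliest and the latest sample were EC-Dicerflox 1 and 3.

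mmu-miR-99a and mmu-miR-100 were detected in 2 of 6 samples each. For miR-99a the Ct was 26.5 in EC-Dicerflox 1 and 38.5 in EC-DicerWT 1, and the other 4 samples were at 40. For miR-100 the Ct was 35.9 in EC-Dicerflox 1 and 36.0 in EC-DicerWT 3, and the other 4 samples were at 40. Neither reached the 3 detected samples required for a test. On the same card, 249 of 335 miRNA assays were detected in all 6 samples and 69 in at most 2.

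The let-7 miRNAs of the same loci were detected throughout. The Ct of let-7c, which lies beside miR-99a, ranged from 17.2 to 18.1 (rank 14), and that of let-7a, which lies beside miR-100, from 18.9 to 19.6 (rank 32). Both let-7a and let-7c are also made from loci elsewhere in the genome. Within a sample, let-7c was 8.93 cycles ahead of miR-99a in EC-Dicerflox 1, 21.3 cycles in EC-DicerWT 1 and at least 21.9 cycles in the 4 samples where miR-99a was not detected. miR-99b, with the same seed, was 7.63 cycles ahead of miR-99a in EC-Dicerflox 1 and at least 20.5 cycles ahead in the others. Whether these assays amplified with equal efficiency was not tested.

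**Figure D1:**
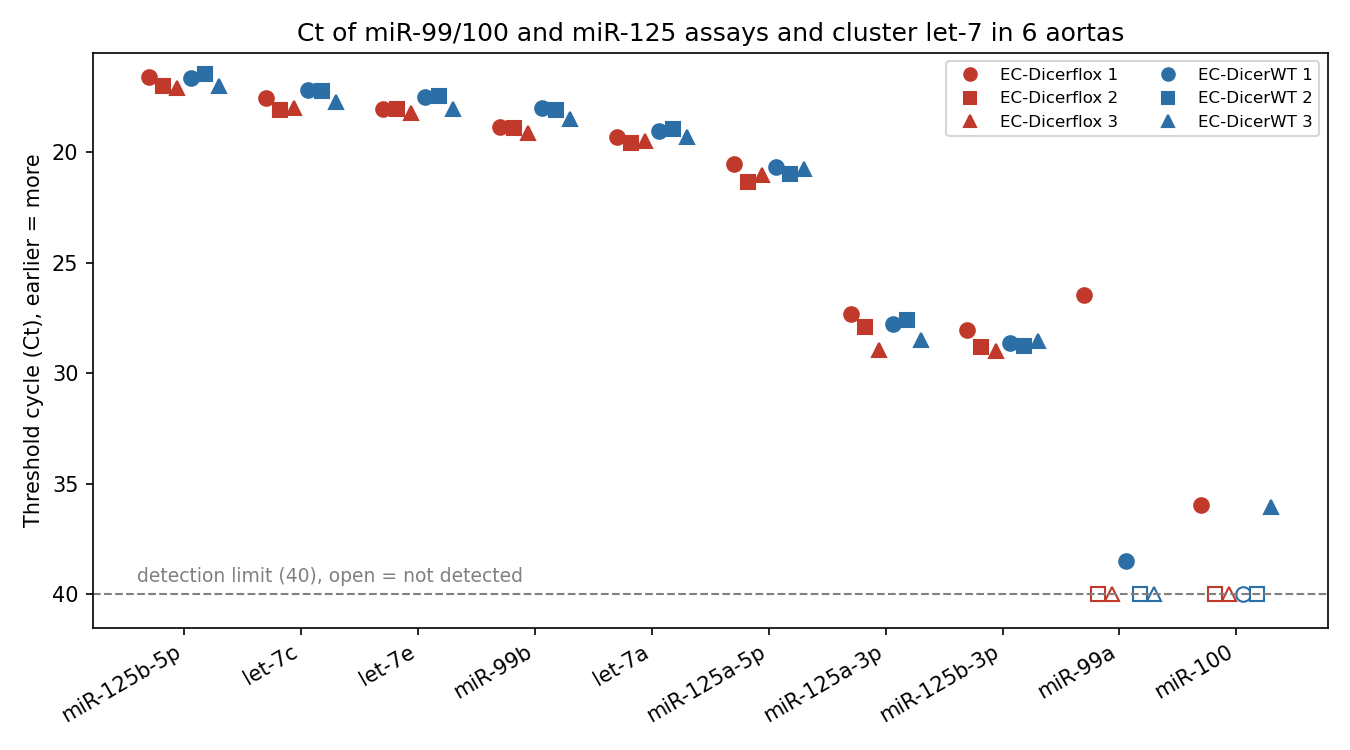
Threshold cycle (vertical axis, inverted so that more RNA is higher) of the 7 assays and the let-7 miRNAs of their clusters in each of the 6 aortas. Open symbols at 40 were not detected: miR-99a and miR-100 sit at or near the limit except for miR-99a in EC-Dicerflox 1 at 26.5, while their cluster neighbours let-7c, let-7a and miR-125b-5p lie between 16.5 and 19.6.

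The single early value of miR-99a stood 12.0 cycles before the next sample. Of the 596 assays, 3 had a sample at least 10 cycles ahead of the next one. The others, named after their values were seen, were miR-875-3p in EC-DicerWT 2 and miR-343 in EC-Dicerflox 3. For miR-875-3p the Ct was 29.3 with the next sample at 40, and for miR-343 it was 4.03 with the next at 15. The same aorta, EC-Dicerflox 1, had the highest miR-10a, with a Ct of 18.9 against 21.6 to 23.0 in the other 5 samples. Among the 394 assays detected in all samples, miR-10a, miR-292-5p and miR-96 were the 3 in which EC-Dicerflox 1 lay more than 2 cycles outside the others, miR-10a and miR-292-5p earlier and miR-96 later. The other samples had 0 to 16 such assays, so EC-Dicerflox 1 did not stand out by this count. Why it differed in these assays was not tested. Without EC-Dicerflox 1, miR-99a was detected in EC-DicerWT 1 alone.

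The order of the 7 mean levels was miR-125b-5p, miR-99b, miR-125a-5p, miR-125a-3p, miR-125b-3p, miR-99a and miR-100. Each of the first 4 was ahead of its next neighbour in 6 of 6 samples (exact sign-flip permutation test, two-sided, P = 0.031 for each of these 4 steps, the smallest P that 6 samples can give, and adjusted P = 0.047 over 6 steps). The steps were 1.78 ± 0.36, 2.31 ± 0.47, 7.12 ± 0.58 and 0.63 ± 0.46 cycles (SD, n = 6). miR-125b-3p was ahead of miR-99a in 5 of 6 samples (exact P = 0.0625). No order of miR-99a and miR-100 can be given, because both were at 40 in 3 of the 6 samples. The order was taken from the means of these same 6 samples, so the P values add no separate support for it. The order also holds any difference in efficiency between assays.

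The 5p strands of miR-125 exceeded the 3p strands by a wide margin. Counting each cycle as a doubling, miR-125a-5p was 139.5-fold above miR-125a-3p on average (7.12 cycles, 93.7-fold to 244-fold over the 6 samples). miR-125b-5p was 3665-fold above miR-125b-3p (11.8 cycles, 2833-fold to 5015-fold). The 5p assay reads both miR-125b loci, while the locus of the miR-125b-3p assay is not settled. Against miR-125b*, the other passenger strand assay, which is on card B, the margin was 1594-fold (10.6 cycles, 964-fold to 2961-fold), so the size depends on the strand assay taken. That comparison was added after the data were seen. The strand difference of miR-125a was 7.10 ± 0.73 in EC-Dicerflox and 7.15 ± 0.56 cycles in EC-DicerWT (SD, n = 3; difference −0.054, exact permutation P = 0.9), and leaving out single aortas moved this difference from −0.47 to 0.24. For miR-125b it was 11.7 ± 0.24 and 11.9 ± 0.36 cycles (SD, n = 3; difference −0.21, exact permutation P = 0.4). With miR-125b* in its place the difference was 0.23 (exact permutation P = 0.7). In each of these the genotypes differed by less than the larger SD within a group.

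To compare the genotypes, each Ct was subtracted from that of the reference, which gives a level on a log2 scale. Of the 5 assays that could be tested, miR-99b was the one with groups that did not overlap. Its level was 0.60, 0.96 and 1.23 in EC-Dicerflox and 1.60, 1.37 and 1.70 in EC-DicerWT. The mean was 0.93 ± 0.31 in EC-Dicerflox and 1.56 ± 0.17 in EC-DicerWT (SD, n = 3), so that mmu-miR-99b stood at 64.7% of its EC-DicerWT level. The change was −0.63 ± 0.26 log2 (SE, 95% interval −1.27 to 0.019) and did not pass the test (limma, unadjusted P = 0.055, adjusted P = 0.98 over 439 assays). Non-overlapping lower groups were found in 7.06% of all tested assays and non-overlapping higher groups in 2.73%, beside 1 of 5 here. At the adjusted threshold 0% of all tested assays were called. The alternatives with a model term for the third replicates and with replicates 1 and 2 alone each called 1 assay, mmu-miR-1906. It is not among those studied here. By limma's unadjusted P, 3.87% were lower and 0.911% higher, and 0 of these 5.

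Among the 12 cell type markers, 6 were lower and 6 higher in EC-Dicerflox. mmu-miR-208, a heart muscle miRNA, was lower like miR-99b, by −1.65 ± 0.53 log2 (SE, limma unadjusted P = 0.024, adjusted P = 0.98), and its groups did not overlap. The other striated muscle markers, mmu-miR-1 and mmu-miR-133a, differed by −0.15 ± 0.36 and 0.07 ± 0.22 log2 (SE). The log2 summed level of the 3 striated muscle markers ranged from 1.08 to 1.55 in EC-Dicerflox and from 1.14 to 1.39 in EC-DicerWT. That sum is set mostly by miR-133a, with a mean log2 level of 1.18 against −2.21 for miR-1 and −11.8 for miR-208. It therefore cannot show a change of miR-208. The part of other tissue in the miR-99b value was not tested.

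The other 4 differed from their EC-DicerWT levels by less than the standard error, with intervals that leave room for change in either direction. miR-125a-5p differed by −0.01 ± 0.37 log2 (SE, 95% interval −0.94 to 0.92). miR-125b-5p differed by −0.024 ± 0.23 (SE, −0.60 to 0.56), the narrowest interval of the 5. The 3p strands differed by 0.044 ± 0.26 (SE, −0.62 to 0.71) for miR-125a-3p and 0.19 ± 0.31 (SE, −0.61 to 0.99) for miR-125b-3p. The adjusted P was 0.99 for each of these 4 in limma. The median change of the 5 was −0.01, with 3 lower and 2 higher, beside a median of −0.10 over all 439 tested assays, of which 271 were lower and 168 higher. The sign of each of these 4 small changes turned with another reference RNA or without 1 of the aortas. With U6 alone as the reference the median over all tested assays was −0.48 and the change of miR-99b −1.01. A new reference moves the changes of all assays by the same amount, so this says nothing about miR-99b relative to the others.

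**Figure D2:**
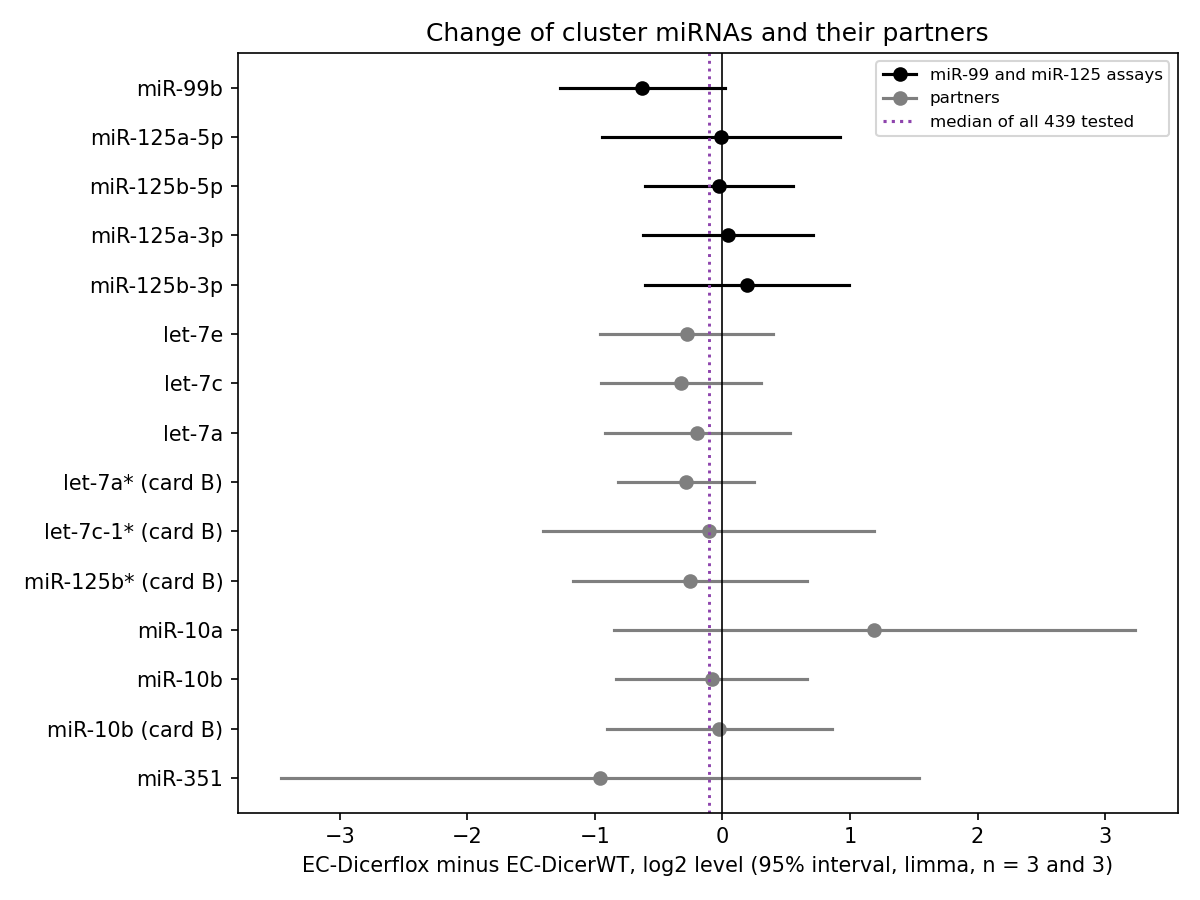
Change in level between EC-Dicerflox and EC-DicerWT (horizontal axis, log2, with the 95% interval from limma) for the 5 tested assays in black and 10 assays of partner miRNAs in grey. miR-99b lies lowest of the 5 at −0.63 and the other 4 lie between −0.024 and 0.19, while all intervals but that of miR-99b, which ends at 0.019, extend well past 0 on both sides.

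The partner list held the let-7 miRNAs of the loci, the passenger strands and 3 miRNAs of related sequence. Of its 12 names 9 were in the table, on 10 assays, and all 10 were tested. 9 were lower and 1 was higher in EC-Dicerflox, with a median of −0.22, and 0 of 10 passed the limma test, also at an unadjusted P under 0.05. let-7e, which lies between miR-99b and miR-125a, differed by −0.28 ± 0.27, let-7c by −0.33 ± 0.25 and let-7a by −0.20 ± 0.29 log2 (SE). Without EC-Dicerflox 1 these were −0.075, −0.26 and −0.037, and with U6 alone −0.66, −0.70 and −0.57. The passenger strands let-7a*, let-7c-1* and miR-125b* differed by −0.28 ± 0.21, −0.11 ± 0.51 and −0.25 ± 0.36 log2 (SE). Groups did not overlap in let-7a*, which was lower, and in miR-10a, which was higher. Over all tested assays, 7.06% were lower and 2.73% higher without overlap. Both separations were narrow. For let-7a* the highest EC-Dicerflox level was −5.705 and the lowest EC-DicerWT level −5.625. For miR-10a the lowest EC-Dicerflox level was −2.154 and the highest EC-DicerWT level −2.189, and its raw Ct values overlapped.

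Of the related miRNAs, miR-10a and miR-351 had the largest SEs of the 10 partner assays, and miR-10b did not stand out. miR-10a differed by 1.19 ± 0.81 log2 (SE, adjusted P = 0.99 in limma), and by 0.31 without EC-Dicerflox 1, the sample with the early value described above. miR-10b differed by −0.085 ± 0.29 on card A and by −0.023 ± 0.35 on card B (SE), although the assay on card B crossed the threshold at 27.5 to 28.6 cycles and that on card A at 23.4 to 24.8. miR-351, which carries the miR-125 seed, was detected in 3 of 6 samples and differed by −0.96 ± 0.99 (SE), with wells at the limit counted as 40.

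A difference between 2 assays of the same card needs no reference RNA, so neighbours were also compared within each sample. let-7e and miR-99b, which sit side by side on chromosome 17, had the smallest SDs within the groups (0.074 in EC-Dicerflox and 0.11 in EC-DicerWT, n = 3) of the 5 planned differences without undetected wells. let-7e was ahead by 0.79, 0.89 and 0.94 cycles in EC-Dicerflox and by 0.47, 0.65 and 0.45 cycles in EC-DicerWT. The groups did not overlap and differed by 0.35 cycles, with P = 0.1 in the exact permutation test, the smallest P that 3 against 3 samples allow, and 0.73 after adjustment over the 11 differences compared. Of these 11, 6 contain miR-99a or miR-100. For miR-100 minus miR-99a both wells were at 40 in 3 samples, so that this difference has no value there and is not compared. The other 5 are bounds where a well was not detected, and with these wells at 40 none passed the exact permutation test (P = 0.3 to 0.6, adjusted P = 0.73).

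At the other side of the same cluster, miR-99b was ahead of miR-125a-5p by 1.67, 2.45 and 1.88 cycles in EC-Dicerflox and by 2.69, 2.90 and 2.26 cycles in EC-DicerWT. EC-Dicerflox 2 overlapped with EC-DicerWT 3, and the mean difference of −0.62 cycles gave P = 0.2 (exact permutation test, adjusted P = 0.73). The paralogs miR-125a-5p and miR-125b-5p kept a distance of −4.09 ± 0.29 cycles (SD, n = 6) that was nearly the same in both groups (−4.08 ± 0.25 in EC-Dicerflox and −4.10 ± 0.38 in EC-DicerWT, SD, n = 3, difference 0.014, exact permutation P = 1), and leaving out single aortas moved the difference between groups from −0.19 to 0.18. The mean of miR-99b and miR-125a-5p minus miR-125b-5p, a comparison added after the data were seen, differed by −0.30 (exact permutation P = 0.2).

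**Figure D3:**
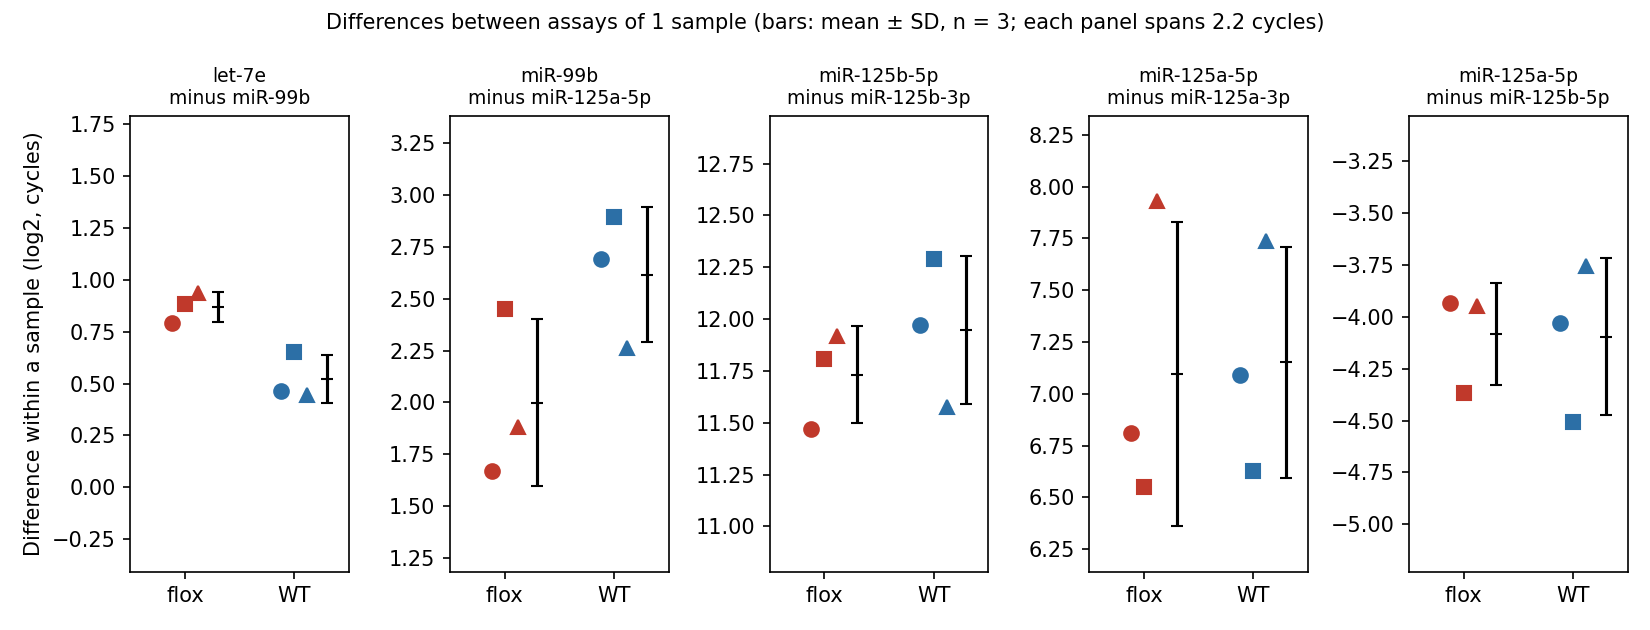
Difference in cycles between 2 assays of the same aorta (vertical axis, log2) for 5 pairs, with EC-Dicerflox in red, EC-DicerWT in blue, replicates 1, 2 and 3 as circle, square and triangle, and the group mean ± SD (n = 3) beside it, and every panel spans the same range. The groups separate for let-7e minus miR-99b (0.79 to 0.94 against 0.45 to 0.65) and overlap in the other 4 pairs.

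Finally, it was asked how constant the ratio between cluster members was from aorta to aorta. The measure was the SD over the 6 samples of the Ct difference between 2 assays, ranked among 393 other assays detected in all samples. A small SD means a nearly constant difference, whether 2 miRNAs moved together or both varied little. miR-125b-5p, for example, had a level SD of 0.18 over the 6 samples. Below, the miRNAs that followed an assay most closely are those with the smallest SD. It is a description without a test, and the assays share the RNA and card of each sample. miR-99b was followed most closely by let-7i (SD 0.077 cycles) and miR-103 (0.10). Both were lower in EC-Dicerflox with groups that did not overlap, as were 7.06% of all tested assays. They were picked for following miR-99b over these same samples, its genotype difference included. Their direction therefore gives no separate support to that of miR-99b. mmu-let-7i differed by −0.57 ± 0.24 log2 (SE, limma unadjusted P = 0.060, adjusted P = 0.98). mmu-miR-103 differed by −0.70 ± 0.25 log2 (SE, limma unadjusted P = 0.034, adjusted P = 0.98). The study, by its own processing of the cards, reported miR-103 as downregulated in EC-Dicerflox aortas.

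Its cluster mate let-7e ranked 9 for miR-99b (SD 0.21), whereas miR-125a-5p, which lies in the same 692 bases, ranked 153 (SD 0.47, beside a median of 0.54 over the 393 assays). For miR-125a-5p the closest were miR-140 (0.12) and miR-210 (0.13). The paralog miR-125b-5p ranked 37 (0.29), ahead of let-7e at 92 (0.41), miR-99b at 129 and its own 3p strand at 190 (0.58). The place of the 3p strand rests on the third replicates, since in replicates 1 and 2 alone (4 samples) the 3p strand ranked 69 (0.24), ahead of miR-125b-5p at 86 (0.27), let-7e at 200 and miR-99b at 227.

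miR-125b-5p was followed most closely by miR-30c (0.064) and miR-28 (0.076). let-7a ranked 20 (0.15), let-7c ranked 36 (0.19) and its own 3p strand 106 (0.30). The 3p strands were closest to other miRNAs too: miR-125a-3p to miR-214 (0.14) and miR-199b on card B (0.18), and miR-125b-3p to miR-186 (0.12) and miR-210 (0.17). The 5p strand of miR-125a ranked 6 for miR-125b-3p, ahead of miR-125b-5p at rank 30. These places also moved in replicates 1 and 2 alone. There miR-16 and miR-30d were closest to miR-125b-5p, let-7a ranked 31, let-7c 105 and the 3p strand 172. For miR-99b, let-7e ranked 22 and miR-125a-5p 227. The miRNAs closest to miR-99b there were miR-101a* and let-7i, and those closest to miR-125a-5p were miR-151-3p and miR-574-3p. The miRNAs closest to each 3p strand were different ones there too. With a reference per card, miR-30d took the place of miR-199b for miR-125a-3p, and miR-20a* that of miR-210 for miR-125a-5p.

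**Figure D4:**
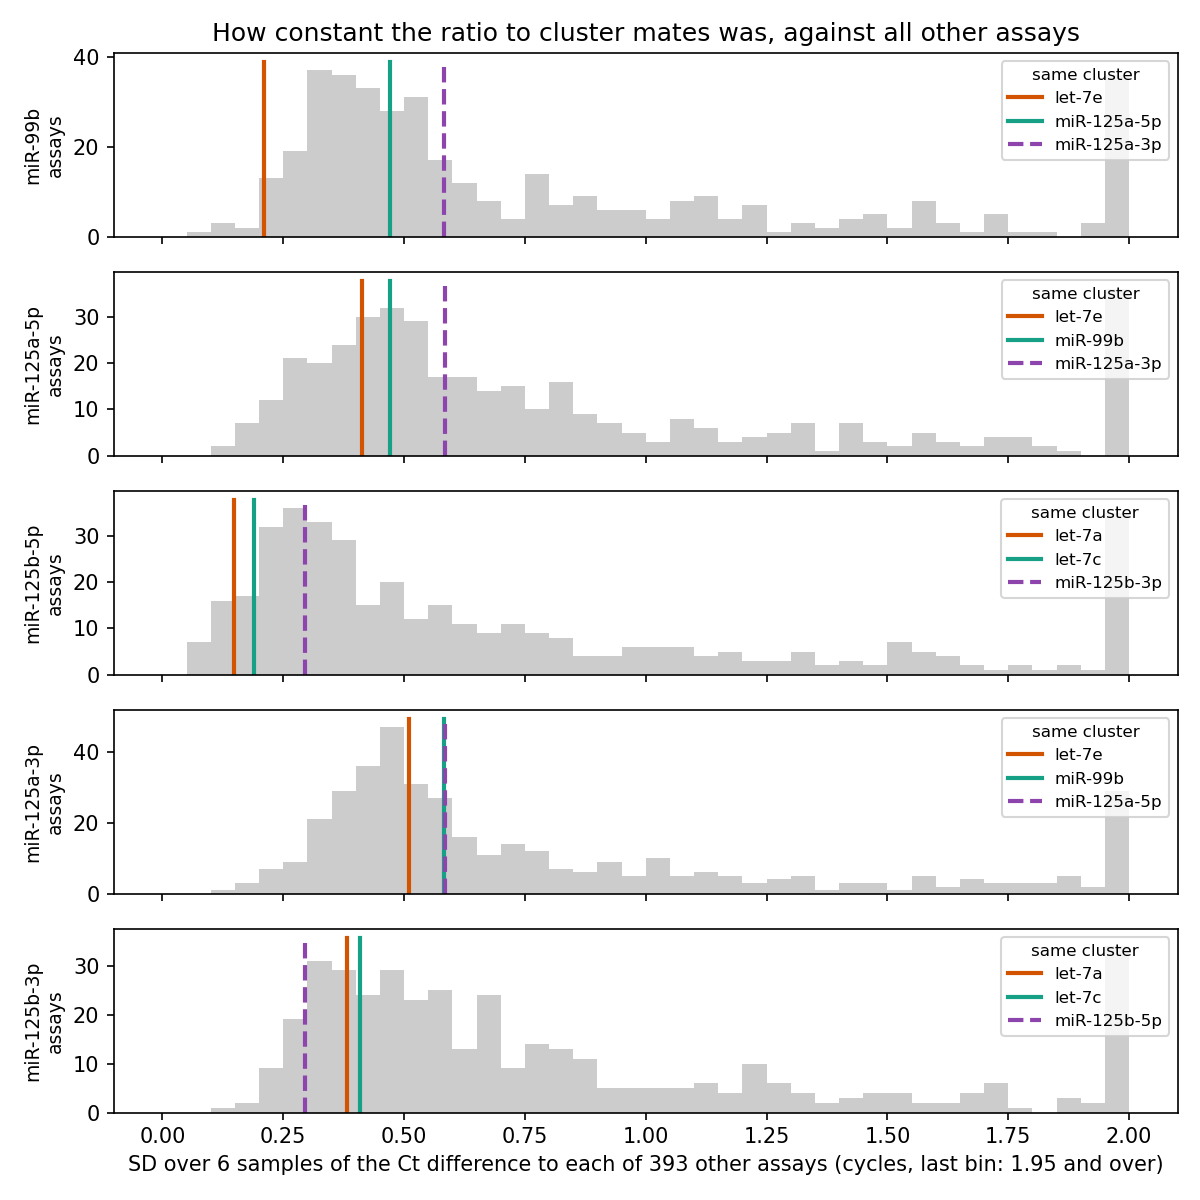
For each of the 5 assays detected in all samples, the grey histogram gives the number of other assays (vertical axis) by the SD over 6 samples of the Ct difference to it (horizontal axis, cycles), with 393 others per panel, and coloured lines mark miRNAs of the same cluster. let-7e lies in the left tail for miR-99b (0.21), and miR-125a-5p near the middle (0.47); for miR-125b-5p, let-7a and let-7c lie in the left part (0.15 and 0.19).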

How the data were processed

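According to its methods, the study made cDNA with a rodent primer pool, preamplified it and measured it on TaqMan cards. What the authors deposited are raw Ct values, with no reference subtracted, in 1 column per sample. Which software setting placed the threshold was not given in the sources used here. Cards A and B were told apart by the length of the assay number. Levels were computed as the mean Ct of U6, snoRNA135, snoRNA202, U87 and Y1 over both cards minus the Ct of the miRNA, taking each cycle as a doubling. Wells at the limit kept a Ct of 40, and assays under 40 in at least 3 of 6 samples (439 of 596) were tested. This filter left 5 of the 7 assays.

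Groups were compared with limma 3.58.1 in R 4.3.3 (lmFit, eBayes, two-sided, no covariate, Benjamini-Hochberg over all 439). Within-sample differences were compared by exact permutation over the 20 assignments of 3 and 3 samples. The fit was tested on simulated data. Figures were drawn with matplotlib 3.10.9. The named miRNAs were the 7 assays, the partner list, the 2 miRNAs closest to each assay by SD and the cell type markers. The assays and lists were chosen with earlier results of these data known. Alternatives were other references, detection rules, variance models, a replicate block, a term for the third replicates and leaving out each sample. The labels give replicate numbers and name no batch. Ct values carry no read depth, so precision depends on the number of mice. The limma P values weigh a group difference against the variation within groups, with variances moderated over the tested assays. The exact P values count rearrangements of these 6 samples.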

Additional observations from a re-analysis of the deposited data

Results flagged for a closer look

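The assay of a plant miRNA on card A, a control that should give no signal in mouse RNA, was read at a Ct of 39.776 in EC-Dicerflox 1, just under the limit of 40, and at 40 in the other 5 samples. This control enters none of the comparisons.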

How the results depend on the processing

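miR-99b was lower in EC-Dicerflox in all 21 alternatives (−1.01 to −0.46 log2, −0.78 to −0.46 when each sample was left out). Its adjusted P stayed above the threshold (0.68 to 0.999), and its unadjusted limma P was under 0.05 in 7. It was the 1 assay of the 5 under that P with snoRNA135, with U6 and snoRNA135 or with a reference per card. The same held with its own variance, with an intensity trend and with a term for the third replicates. Leaving out single samples gave 0 to 1, with 1 without EC-Dicerflox replicate 3. Its groups stayed apart with all 5 other references. The median change of the 5 was −0.39 with U6 alone, when that of all tested assays was −0.48 (−0.10 with 5 control RNAs). Scaling also moved the split of unadjusted calls over all assays, from 17 lower and 4 higher to 11 lower and 0 higher with U6, 12 and 4 with the global mean, and 19 and 1 with U6 and snoRNA135.

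The small changes turned sign. miR-125a-5p was 0.043 with the global mean, 0.039 with snoRNA135, 0.033 in replicates 1 and 2 alone and −0.25 to 0.24 leaving out each sample. miR-125b-5p was 0.029 with the global mean, 0.025 with snoRNA135 and −0.16 to 0.056 leaving out each sample. miR-125a-3p was −0.33 with U6, −0.12 with U6 and snoRNA135 and −0.10 to 0.25 leaving out each sample, and miR-125b-3p was −0.19 with U6 and −0.012 to 0.46. Among partners, let-7c-1* was 0.11 in replicates 1 and 2 alone (leaving out each sample, −0.40 to 0.29), and miR-10b on card B was 0.030 with the global mean and 0.025 with snoRNA135 (−0.34 to 0.17). Leaving out each sample gave −0.41 to 0.0048 for miR-125b*, −1.56 to 0.11 for miR-351 and −0.31 to 0.097 for miR-10b on card A. Among the within-sample group differences, leaving out each sample gave −0.19 to 0.18 for miR-125a-5p minus miR-125b-5p, −0.47 to 0.24 for miR-125a-5p minus miR-125a-3p, −0.17 to 6.38 for miR-99a minus miR-125b-5p, −0.98 to 1.68 for miR-100 minus miR-125b-5p and −2.72 to 0.098 for the miR-99b cluster minus the others. For miR-125b-5p minus miR-125b-3p the sign turned with miR-125b* in its place (0.23). The cause was not tested.

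Without a detection filter, limma gave 4.16 ± 3.77 log2 (SE) for miR-99a and 0.20 ± 1.68 (SE) for miR-100, neither past the threshold, and the first rests on EC-Dicerflox 1. Samples of the same replicate number did not deviate together throughout (correlations of 0.15, −0.062 and 0.31 over 439 assays), so the numbers were not taken as pairs. With a replicate block miR-99b was −0.63 ± 0.24 log2 (SE, limma adjusted P = 0.87), and 0 of 5 assays passed, as without it. The count of adjusted calls over all assays was 1 (mmu-miR-1906) with the term for the third replicates and with replicates 1 and 2 alone. It was 0 in the other alternatives.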
